A study of Mus musculus with 6 samples.

Results

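The 9 genes described here are Hox genes read in cultures of skull bone cells: Hoxa2, Hoxa3, Hoxb2, Hoxb3, Hoxb9, Hoxd3, Hoxd4, Hoxd8 and Hoxd9. They were chosen by their counts in these libraries, as Hox genes with enough reads to be measured, from a table of 29018 genes. Each symbol had a single row. The level of a member was therefore used to choose it and is given as a description. The choice does not follow the counts alone. Hoxa3, with the fewest counts of the 9 (124 over all libraries), stood just above Hoxb4 (117), which was not chosen, but Hoxc13 (272) was not chosen either although it had more counts than Hoxa3. Hoxb4 and Hoxc13 are therefore given beside the members. Of the 39 Hox genes of the mouse, 23 had a row in the table, 12 of these passed the count filter and 11 did not. The other 16 were not analysed here.

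The cells were osteoblasts, the cells that build bone, from the calvaria (the skull vault) of newborn mice, and RNA was taken after osteogenic differentiation. The mice were either WT or carried a knockout (KO) of the protein kinase NDR1, whose gene is Stk38, and each genotype gave 3 libraries. The labels gave no strain, sex, knockout allele or exact age, and did not say whether the replicates were separate animals or cultures, so the p-values rest on differences among these 6 libraries alone and that spread may be technical. Total counts ran from 61461870 to 76159034 per library. Stk38 itself had 3004 to 4040 counts in KO and 4781 to 5331 in WT (log2 change -0.61), so the groups differ in the direction of their labels, but much of its RNA was still read in KO.

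Hox genes encode homeodomain transcription factors and lie in 4 clusters, HoxA to HoxD. The number in a name is the paralog group. Genes of low number are switched on early and far forward in the embryo, up to the hindbrain and the pharyngeal arches, and genes of high number later and nearer the tail and limb tips. The skeleton in front of the second pharyngeal arch, including the skull vault, forms largely from cells in which Hox genes are silent, and forced Hox expression there disturbs bone formation. Hox proteins bind DNA with partners of the PBX and MEIS families, retinoic acid activates the low-numbered genes, and Polycomb complexes keep the clusters silent where they are not used.

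The promoters of 6 of the 9 members were found in RefSeq's sequences for GRCm38.p6 (Hoxa2, Hoxa3, Hoxd3, Hoxd4, Hoxd8 and Hoxd9). Those of 4 genes that fell in KO are shown, placed by the RefSeq start of each gene. They lie at chr2:74704365-74704664 (Hoxd8, plus strand), chr2:74697513-74697812 (Hoxd9, plus), chr2:74721728-74722027 (Hoxd4, plus) and chr6:52164782-52165081 (Hoxa2, minus). Each runs 5′ to 3′ on the gene's strand, from 250 bases before the RefSeq start to 50 bases after it. Where the RNAs counted here begin was not measured. The deposited row of Hoxd4 starts at 74542273, beside that of Hoxd3 at 74542271. It may therefore include RNAs that begin outside the Hoxd4 window. Capitals mark matches, on either strand, to 4 motifs: TGATNNAT, a site for a PBX and HOX pair, TAATTA, a homeodomain core, AGGTCA, the unit of retinoic acid receptor sites, and TATAAA, the TATA box. No match overlapped another.
Hoxd8: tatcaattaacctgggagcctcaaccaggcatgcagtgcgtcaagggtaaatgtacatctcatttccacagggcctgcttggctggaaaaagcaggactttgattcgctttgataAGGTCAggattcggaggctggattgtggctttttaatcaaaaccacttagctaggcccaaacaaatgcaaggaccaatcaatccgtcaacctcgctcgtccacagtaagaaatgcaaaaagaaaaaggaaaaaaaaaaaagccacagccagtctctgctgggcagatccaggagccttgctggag
Hoxd9: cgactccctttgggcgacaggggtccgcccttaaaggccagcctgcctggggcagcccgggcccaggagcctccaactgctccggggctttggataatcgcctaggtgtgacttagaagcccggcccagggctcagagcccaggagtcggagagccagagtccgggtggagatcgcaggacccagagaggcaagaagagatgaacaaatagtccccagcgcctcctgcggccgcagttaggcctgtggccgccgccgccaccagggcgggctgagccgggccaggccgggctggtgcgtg
Hoxd4: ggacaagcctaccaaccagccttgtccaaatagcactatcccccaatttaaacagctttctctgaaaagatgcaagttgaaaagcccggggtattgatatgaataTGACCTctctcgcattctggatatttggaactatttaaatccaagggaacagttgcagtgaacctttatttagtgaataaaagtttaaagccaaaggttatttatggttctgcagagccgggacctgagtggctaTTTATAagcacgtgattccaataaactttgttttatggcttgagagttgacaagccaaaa
Hoxa2: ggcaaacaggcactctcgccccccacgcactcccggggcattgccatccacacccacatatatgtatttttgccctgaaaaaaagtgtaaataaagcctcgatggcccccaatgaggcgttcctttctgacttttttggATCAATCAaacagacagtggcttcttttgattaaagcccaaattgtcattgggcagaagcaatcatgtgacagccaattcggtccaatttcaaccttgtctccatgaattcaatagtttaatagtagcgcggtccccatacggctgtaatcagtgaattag

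AGGTCA was found in the windows of Hoxd8 (first base at position -135 from the start), Hoxd4 (-145) and Hoxd3 (-161), and in 16.26% of 32851 promoters of the same length. TGATNNAT was found only in Hoxa2 among these 6 (position -111, 8.85% of all promoters), TATAAA only in Hoxd4 (position -10, 13.62%), and TAATTA in none of the 6 (5.29%). The GC content of the 6 windows ran from 39.7% for Hoxd4 to 68.3% for Hoxd9, against a median of 52.7% over all promoters. These matches describe letters in short windows and were not tested as binding sites.

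Levels between genes are compared as FPKM, the deposited fragment values scaled to transcript length and library size. In WT, Hoxd8, a gene of trunk patterning, was the highest member, with 4.39, 5.29 and 4.23 FPKM in replicates 1 to 3. It stood at the 60.5th percentile of the 18221 genes tested. Hoxa2, the selector gene of the second pharyngeal arch, followed with 2.05, 1.91 and 2.10 FPKM, and then Hoxd9, a gene of the limbs and lower spine, with 1.17, 0.903 and 0.997 FPKM. The libraries of these 3 genes did not overlap each other or those of Hoxb3, the next in order. Below them the order was Hoxb3 (0.716 ± 0.108 FPKM, SD, n = 3), Hoxb2 (0.539 ± 0.117), Hoxd4 (0.507 ± 0.216), Hoxd3 (0.265 ± 0.207), Hoxb9 (0.186 ± 0.0806) and Hoxa3 (0.0643 ± 0.0149). Neighbours in this lower part of the order overlapped between libraries, apart from Hoxb9 and Hoxa3. In KO, Hoxd8 was again highest (2.19 ± 0.29 FPKM), and Hoxb9 stood in the third place (0.531 ± 0.0948 FPKM) where it was the eighth in WT, although its libraries overlapped those of Hoxa2 above it and Hoxb2 below it. The sum over the 9 members was 9.51 to 10.7 FPKM in WT and 4.66 to 5.12 FPKM in KO, and Hoxd8 made up 42.9% to 49.4% of it in every library.

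**Figure D1:**
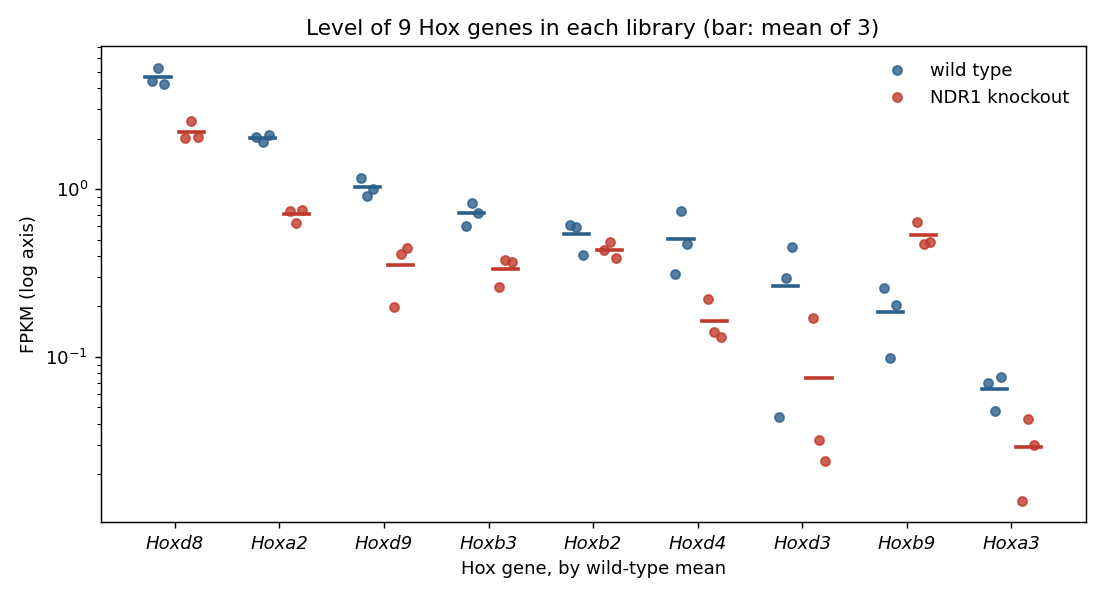
Deposited FPKM (log axis) of the 9 Hox genes in each of 3 WT and 3 KO libraries, in the order of the WT means, with bars at the group means. Hoxd8, Hoxa2, Hoxd9, Hoxb3, Hoxd4 and Hoxa3 lie lower in KO in all libraries, Hoxb9 lies higher, and Hoxb2 and Hoxd3 overlap.

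For comparison, the skull and bone transcription factors named next were read at higher levels per length than any member. They do not stand for all cranial factors listed, whose levels are not given here. Alx4 and Msx2, which shape the calvarial bones, stood at 17.6 ± 0.0436 and 16.2 ± 0.788 FPKM in WT, and Runx2, the master factor of osteoblasts, at 9.54 ± 0.351 FPKM. Of 8 osteoblast markers all 8 passed the count filter. Of 18 cranial transcription factors 17 did, and Otx2 had no row. RNAs that mark skull and bone cells were thus present, as the labels say. Among the 12 trunk and limb factors Tbx5 was under the filter and Pitx1, Hand2, Uncx and Tcf15 had no row, whereas Meox2, a mesoderm factor, stood at 34.3 ± 0.649 FPKM in WT.

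KO cultures held less RNA of most of these Hox genes and more of Hoxb9. Of the 9 members 5 were lower (Hoxa2, Hoxb3, Hoxd4, Hoxd8 and Hoxd9), 1 was higher (Hoxb9) and 3 did not pass (Hoxa3, Hoxb2 and Hoxd3), in edgeR's test over all genes at an adjusted p under 0.05. Over all 18221 genes tested 22.9% were called, 11.7% as lower and 11.2% as higher. For 7 of the 9 members the KO and WT libraries did not overlap in CPM (counts scaled to the TMM-adjusted library size), against 38.2% of all genes. The median log2 change of the members was -1.21 and that of all genes 0.00. The members were picked with these results in view, and Hoxa3 and Hoxd3 passed the count filter only through the WT libraries, so these counts describe the members and support nothing further. Without TMM scaling the split of all calls moved from 2048 higher and 2131 lower to 2769 and 1629, while that of the members stayed at 1 and 5. In libraries of whole cultures, fewer cells of a type and less RNA per cell cannot be told apart.

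Hoxd8 (ENSMUSG00000027102, chromosome 2, 74534959 to 74538277 in the deposited coordinates) had 441, 453 and 454 counts in KO replicates 1 to 3 and 853, 1030 and 843 in WT. All 3 KO libraries lay below all WT libraries. Its level was 6.30 ± 0.803 CPM in KO and 13.8 ± 1.68 CPM in WT, a log2 change of -1.13 ± 0.12 (SE) (edgeR, adjusted p = 7.45e-05). KO libraries kept 45.7% of the WT amount (95% interval 37.9 to 55.1%). The coordinates are those of a mouse build that the sources used here do not name. Of the 38 rows in the Hox clusters with a gene in GENCODE M21, which is on GRCm38, 0 had its span.

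Hoxd9 (ENSMUSG00000043342, chromosome 2, 74528071 to 74530552) lies beside Hoxd8 on the side of the higher-numbered genes. It had 34, 58 and 77 counts in KO and 177, 137 and 155 in WT. The KO library of replicate 1 was the lowest and no KO library reached the lowest WT library. The level fell to 33.4% of WT, with 0.790 ± 0.301 against 2.37 ± 0.314 CPM (log2 change -1.58 ± 0.31, edgeR, adjusted p = 0.00379). The interval of 20.8 to 53.6% overlaps that of Hoxd8, and the 2 changes were not tested against each other.

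Hoxd3 and Hoxd4, which pattern the first vertebrae of the neck, had the highest variance between replicates relative to the mean count among the members. Hoxd4 (ENSMUSG00000101174, chromosome 2, 74542273 to 74559467) had 53, 28 and 33 counts in KO and 67, 156 and 101 in WT. These groups do not overlap in CPM, and the log2 change was -1.64 ± 0.37 (0.523 ± 0.148 against 1.64 ± 0.685 CPM, edgeR, adjusted p = 0.00843). Hoxd3 (ENSMUSG00000079277, chromosome 2, 74542271 to 74578786) had 58, 9 and 9 counts in KO and 14, 89 and 139 in WT. KO replicate 1 was high and WT replicate 1 low, so the groups overlap, and the log2 change of -1.82 ± 0.83 did not pass (edgeR, adjusted p = 0.155, interval 7.92 to 102% of WT). Without KO replicate 1 it passed (log2 change -3.21, edgeR, adjusted p = 0.0377, within 0.0377 to 0.464 over its alternatives). The call of Hoxd4 was lost in limma's tests on FPKM without a filter (adjusted p = 0.1002 and 0.0776 with pseudocounts of 1 and 0.1, within 0.0002996 to 0.1002).

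Both genes share exons with another row of the table, Gm28230 (ENSMUSG00000100642, chromosome 2, 74557072 to 74578262), a transcript annotated for nonsense-mediated decay on the same strand. In GENCODE M21, Gm28230 covers 2225 of the 4191 exonic bases of Hoxd3 (53.1%) and 1154 of the 2948 of Hoxd4 (39.1%). Hoxd3 and Hoxd4 also share 388 exonic bases with each other, and the antisense gene Hoxd3os1 covers 347 bases of each. Gm28230 had 71, 57 and 83 counts in KO and 178, 38 and 44 in WT. It was highest in WT replicate 1, the WT library in which Hoxd3 and Hoxd4 were lowest. In edgeR it was not called (log2 change -0.44 ± 0.53, adjusted p = 0.632), and the change reversed its sign without WT replicate 1 (0.65, edgeR, adjusted p = 0.222, within 0.222 to 0.957). Summed, Hoxd3, Hoxd4 and Gm28230 had 182, 94 and 125 counts in KO and 259, 283 and 284 in WT. The variance between replicates was 44.9 times the mean for Hoxd3, 15.7 for Hoxd4 and 44.8 for Gm28230, and 3.02 for the sum. The sum fell to 44.1% of WT (interval 32.3 to 60.3%, log2 change -1.18 ± 0.20, edgeR, adjusted p = 0.00176), in a fit added after the data were seen. The sources used here do not say how reads were divided among these rows or whether strand was used. The values of the single rows are therefore uncertain.

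**Figure D2:**
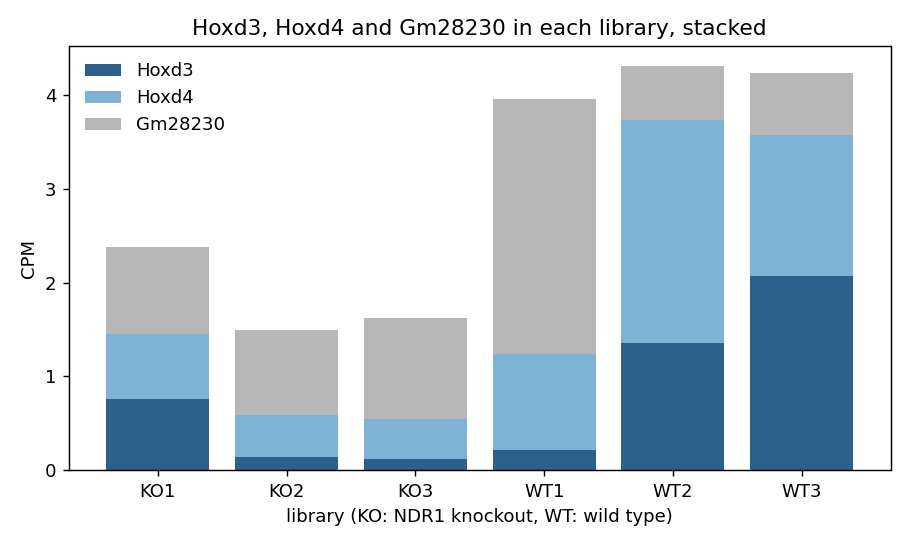
Stacked CPM of Hoxd3, Hoxd4 and Gm28230 in each library. The parts differ between replicates of a group, most of all in WT replicate 1, while the sums are 3.96 to 4.31 CPM in WT and 1.4988 to 2.38 CPM in KO.

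Hoxa2 (ENSMUSG00000014704, chromosome 6, 52139397 to 52141811), known to hold back bone formation in the second arch, had the lowest variance between replicates relative to the mean count among the members. It had 105, 73 and 109 counts in KO and 258, 241 and 271 in WT. The highest KO library held 1.42 CPM and the lowest WT library 3.67 CPM. Its level was 1.32 ± 0.135 against 3.88 ± 0.191 CPM, a log2 change of -1.56 ± 0.17 that left 34.0% of WT (interval 26.0 to 44.5%, edgeR, adjusted p = 9.89e-05). The variance between replicates was 0.729 times the mean, near that of counting noise alone if the counts are single reads. With 3 libraries per group this ratio is imprecise. Hoxa3 (ENSMUSG00000079560, chromosome 6, 52146042 to 52190316), needed for the thymus and the third arch, was barely read, with 7, 17 and 15 counts in KO and 30, 21 and 34 in WT. The groups do not overlap in CPM, but the log2 change of -1.21 ± 0.55 did not pass (edgeR, adjusted p = 0.154, interval 18.6 to 101% of WT).

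Hoxb3 and Hoxb2, hindbrain genes that lie side by side, differed in whether they passed. Hoxb3 (ENSMUSG00000048763, chromosome 11, 96214152 to 96238756) had 89, 105 and 126 counts in KO and 183, 248 and 224 in WT, with no overlap. Its level fell to 45.1% of WT (interval 32.5 to 62.7%, 1.49 ± 0.284 against 3.30 ± 0.491 CPM, log2 change -1.15 ± 0.21, edgeR, adjusted p = 0.00296). Hoxb2 (ENSMUSG00000075588, chromosome 11, 96241351 to 96244838) had 121, 110 and 110 counts in KO and 153, 149 and 103 in WT. WT replicate 3 lay within the KO range, and the log2 change of -0.37 ± 0.23 did not pass (edgeR, adjusted p = 0.311, interval 54.6 to 110% of WT). The antisense gene Hoxb3os covers 2250 of the 4251 exonic bases of Hoxb3 (52.9%) and 953 of the 3488 of Hoxb2 (27.3%) in GENCODE M21. No source used here says that counting used strand, so reads of Hoxb3os and of these genes cannot be told apart. Hoxb3os had 6 to 14 counts in KO and 15 to 33 in WT (log2 change -1.51 ± 0.58, edgeR, adjusted p = 0.0961).

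Hoxb9 (ENSMUSG00000020875, chromosome 11, 96162283 to 96167421), a gene of the rib cage, was the member that rose. It had 131, 79 and 101 counts in KO and 47, 18 and 38 in WT. The lowest KO library (1.26 CPM) was above the highest WT library (0.719 CPM). The level was 1.43 ± 0.249 against 0.520 ± 0.226 CPM, a 2.75-fold rise (log2 change 1.46 ± 0.36, interval 157 to 480% of WT, edgeR, adjusted p = 0.0149). KO replicate 1 was the highest, and without it the call was lost (log2 change 1.304, edgeR, adjusted p = 0.0668). It was also lost in limma on log2(FPKM + 0.1), at an adjusted p of 0.0507. Its 15 alternatives spanned 0.00178 to 0.0668.

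The gene next to Hoxb9 rose as well. Gm53 (ENSMUSG00000078706, chromosome 11, 96141924 to 96160073), a long noncoding RNA gene on the same strand, ends before Hoxb9 begins. It had 197, 115 and 160 counts in KO and 36, 50 and 61 in WT, and rose 2.92-fold (2.16 ± 0.379 against 0.740 ± 0.18 CPM, log2 change 1.55 ± 0.26, edgeR, adjusted p = 0.00177). This call held under all 15 alternatives that gave a value (adjusted p up to 0.0216). Within its span lies Mir196a-1, which encodes a microRNA known to act on Hox RNAs. That row had 5, 1 and 5 counts in KO and 1, 1 and 0 in WT, too few for a test, and libraries made from polyA RNA do not measure the mature microRNA. Its mature 5p strand in RefSeq is shown with the seed, bases 2 to 8, in capitals, to identify it.
mmu-miR-196a-5p: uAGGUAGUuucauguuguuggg

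**Figure D3:**
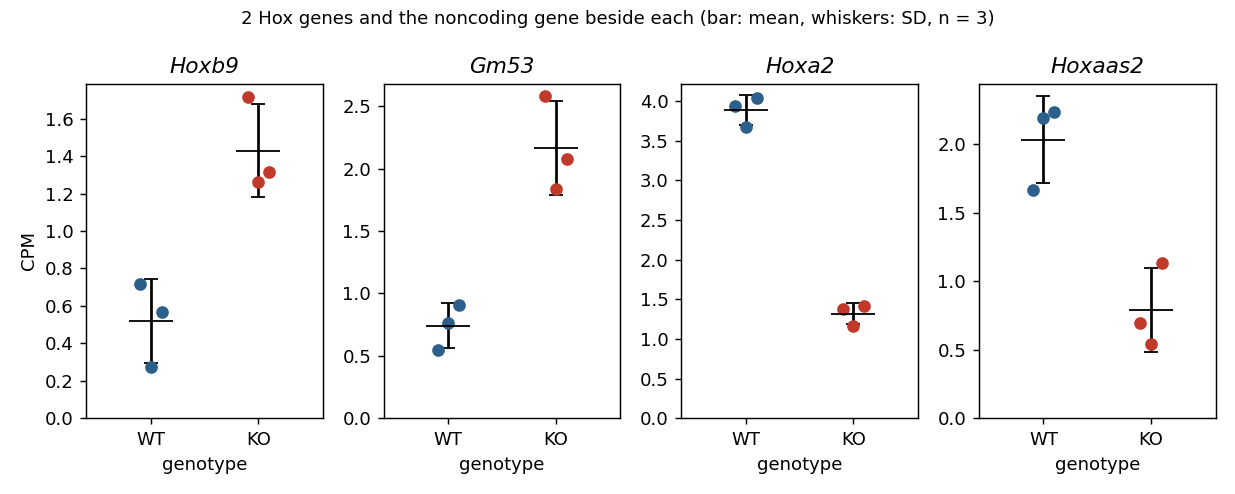
CPM in each library of Hoxb9 and Gm53, neighbours in the HoxB cluster, and of Hoxa2 and Hoxaas2, neighbours in the HoxA cluster, with the mean and SD of 3 libraries. The first pair is higher in all KO libraries and the second pair lower.

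Of the other noncoding genes in the clusters 1 passed the test. Hoxaas2 (ENSMUSG00000056445, chromosome 6, 52142654 to 52146544), an antisense RNA gene between Hoxa2 and Hoxa3, had 53, 34 and 87 counts in KO and 109, 144 and 150 in WT. It fell to 39.0% of WT (log2 change -1.36 ± 0.30, edgeR, adjusted p = 0.00824, but 0.0522 in limma on log2(FPKM + 0.1), within 3.66e-04 to 0.0522). It covers 503 exonic bases of Hoxa3 (8.4%) on the opposite strand. Hotairm1, beside Hoxa2, was at 0.56 ± 0.31 and did not pass (edgeR, adjusted p = 0.251). Hoxd3os1 was at -0.86 ± 0.37 (adjusted p = 0.133) and Haglr at -1.002 ± 1.11 (adjusted p = 0.598), neither called by edgeR. Gm11539 in HoxB (-0.48 ± 0.40, adjusted p = 0.464) and Gm15050 in HoxA (0.06 ± 0.55, adjusted p = 0.956) were not called by edgeR either. Among all genes tested 11.7% were called lower and 11.2% higher. Of 17 cluster RNA genes listed, 8 had a row, 5 were tested, 1 was lower (Hoxaas2) and 0 were higher. Gm53, which rose, was not on this list.

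**Figure D4:**
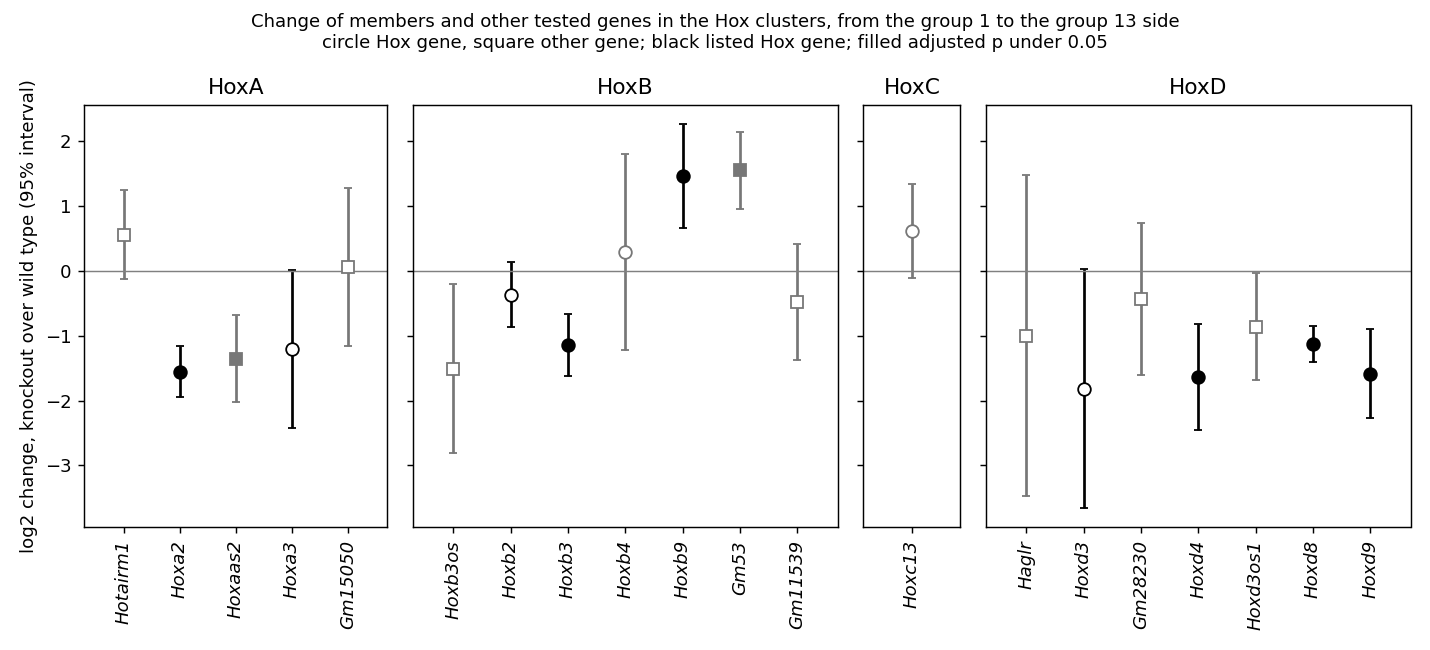
Log2 change of KO over WT with its 95% interval (edgeR) for the members and other tested genes within the Hox clusters, in order from the side of paralog group 1. Filled symbols passed at an adjusted p under 0.05. All points of HoxD lie below 0, though Gm28230 changed sign without WT replicate 1. Of the called genes in HoxA, Hoxa2 and Hoxaas2 lie below 0, and of those in HoxB, Hoxb3 lies below and Hoxb9 and Gm53 above.

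The remaining Hox genes were at or near the limit of reading. Hoxc13, a gene of hair and nail, was the only HoxC gene tested, with 59, 53 and 58 counts in KO and 39, 28 and 35 in WT (log2 change 0.62 ± 0.32, edgeR, adjusted p = 0.223). Hoxb4 had 8, 33 and 25 counts in KO and 24, 19 and 8 in WT and did not pass (log2 change 0.29 ± 0.68, adjusted p = 0.818 in edgeR), with a sign that changed without KO replicate 2 (-0.26) or WT replicate 3 (-0.05). Of the 11 rows under the filter, Hoxd1 had the most counts, 4, 0 and 0 in KO and 14, 8 and 14 in WT. Hoxa5 followed with 6, 4 and 6 in KO and 0, 4 and 4 in WT, then Hoxa4 with 8, 3 and 0 against 4, 0 and 0. Hoxb5 and Hoxa10 each had 12 counts, all in KO libraries, and the other 6 had 4 to 10 in all. Such counts may not be single reads: among all entries of the table the value 4 occurred 6561 times, more often than 3 (2909) or 5 (1937).

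Partners and regulators of Hox genes were counted from lists. Over all genes tested 22.9% were called, 11.7% as lower and 11.2% as higher, and the lists were not tested against these shares. Of 9 PBX, MEIS and PKNOX cofactor genes 2 were lower, 0 higher and 7 not called (median log2 change 0.01). Meis1, a cofactor of Hox proteins, stood at 16.8 ± 0.316 against 28.7 ± 2.48 CPM (log2 change -0.77 ± 0.07, edgeR, adjusted p = 2.47e-05). Pknox1 stood at -0.17 ± 0.07 and did not pass (adjusted p = 0.108 in edgeR). Of 18 Polycomb genes and partners, which silence the clusters, 5 were lower, 0 higher and 13 not called (median -0.06). Among them were Jarid2 (-0.56 ± 0.08), Rbbp4 (-0.16 ± 0.03, not called in limma on log2(FPKM + 0.1)) and Ezh2, the methyltransferase of the complex (-0.30 ± 0.06).

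Of 16 activators of the clusters 13 were tested, 4 were lower, 1 was higher and 8 were not called (median -0.03). The shares over all genes tested were 11.7% lower and 11.2% higher. The demethylases Kdm6b (-0.25 ± 0.04) and Kdm6a (0.25 ± 0.06) moved in opposite directions. Of 18 genes of the retinoic acid pathway 14 were tested, 7 were lower and 2 higher (median -0.13). Aldh1a1, an enzyme that makes retinoic acid, rose from 65.3 ± 1.19 to 156 ± 1.72 CPM (log2 change 1.25 ± 0.03). Aldh1a2, another enzyme of the same step, fell from 2.35 ± 0.74 to 0.777 ± 0.0892 CPM (log2 change -1.59 ± 0.28, edgeR, adjusted p = 0.00204). Rdh10, which makes the retinal they use, changed by -0.30 ± 0.08 (edgeR, adjusted p = 0.0263), and Aldh1a3 stood at 0.25 ± 0.12 without passing (edgeR, adjusted p = 0.156), all 3 named after their values were seen. The binding protein gene Crabp1 changed by -1.07 ± 0.08, and Cyp26b1, which breaks retinoic acid down, by 0.39 ± 0.05. Retinoic acid itself was not measured.

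Genes that mark the head and the trunk were counted in the same fit, where 11.7% of all genes tested were called lower and 11.2% higher. Of 17 cranial transcription factors tested 7 were higher, 2 lower and 8 not called (median 0.34). Those named by lowest p were all among the higher: Msx2 at 0.79 ± 0.04, Alx4 at 0.44 ± 0.03 and the neural crest factor Tfap2b at 1.62 ± 0.11. The 2 that were lower are not named here. Of 7 trunk and limb factors tested 0 were higher, 2 lower and 5 not called (median -0.13). These were Meox2 (-1.25 ± 0.04, edgeR, adjusted p = 1.76e-08) and Meox1 (-0.94 ± 0.25, adjusted p = 0.0207 in edgeR), and the vertebral factor Pax1 stood at -0.29 ± 0.11 without passing. The call of Meox1 was lost under 6 of 15 alternatives, among them without KO replicate 1, KO replicate 2, WT replicate 1 or WT replicate 3 (adjusted p = 0.0684, 0.060, 0.0889 and 0.0569 in edgeR, within 0.0112 to 0.0889).

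Markers of other cells were counted in the same fit, in which 11.7% of all genes tested were called lower and 11.2% higher. Lists with a single call are not set apart from these shares. Of 6 macrophage markers 6 were higher, with a summed level of 241 to 274 CPM in KO and 89.8 to 121 in WT. Of 5 endothelial markers tested 2 were lower (6.58 to 7.40 against 11.9 to 12.6 CPM), Cldn5 and Emcn having no row. Of 5 adipocyte markers tested 4 were lower (10.9 to 11.9 against 22.8 to 26.2 CPM), of 6 muscle markers 1 (4.72 to 5.54 against 6.97 to 8.32 CPM), and of 4 meningeal markers 1 (54.7 to 57.2 against 59.4 to 62.4 CPM). The median log2 change of the adipocyte markers tested was -4.41, a larger fall than their summed level shows. Of 4 Schwann cell and neuron markers 2 were higher (43.0 to 46.4 against 20.7 to 26.6 CPM). The 8 osteoblast markers, 5 of them lower, summed to 22769 to 23994 CPM in KO and 31170 to 32343 in WT. The 4 osteoclast markers, 1 of them lower, summed to 231 to 236 against 309 to 319 CPM. The 6 chondrocyte markers, 2 lower and 2 higher, summed to 4757 to 5148 CPM in KO, above the 3367 to 3744 in WT. Of 5 markers of lymphatic vessels and blood progenitors 2 were higher and 1 lower, and of 2 keratinocyte markers tested 0 were called by edgeR (adjusted p = 0.118 for Trp63, which had an unadjusted p of 0.0358, and 0.677 for Cdh1). Myf6, Dcstamp, Calcr, Ucp1, Krt14 and Slc6a13, markers on these lists, had no row. The part of these differences in the levels of the Hox genes was not tested.

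By the largest gap between centred log2 CPM profiles over the 6 libraries, the genes most like Hoxd8, the member of highest level, were Ndufa4l2 (largest gap 0.09), Alpl (0.13) and Tril (0.14). Alpl, which encodes the alkaline phosphatase of bone, stood at 42.7 ± 3.42 CPM in KO and 97.0 ± 2.27 in WT. Ndufa4l2, a mitochondrial protein gene, stood at 2.17 ± 0.347 against 4.75 ± 0.586 CPM, and Tril, a partner of Toll-like receptor 4, at 26.0 ± 2.74 against 57.0 ± 2.34 CPM. With 2 groups of 3 libraries, such likeness reflects mainly a similar difference between the groups.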

How the data were processed

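RNA sequencing of 3 KO and 3 WT libraries was analysed from 1 table. The authors deposited raw counts per gene and, beside them, FPKM scaled to transcript length and library (units per the file headers). Per the submitters' processing notes the tools were cutadapt 1.9, HISAT2 2.0.4 and StringTie 1.3.4d. The counting method and its use of strand were not given in the sources used here.

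All genes were tested on counts with edgeR 4.0.16 (R 4.3.3, two-sided quasi-likelihood, TMM, filterByExpr with a minimum count of 10, genotype as the only term), with Benjamini-Hochberg adjustment over 18221 genes and calls at an adjusted p under 0.05. Standard errors were taken from the F statistic of each log2 change, and 95% intervals from its t quantile. Alternatives used DESeq2 1.42.0, limma 3.58.1 on log2(FPKM + 1 or 0.1), other scalings and filters, a replicate block and leaving out each library. Scripts were tested on simulated data. Exon overlaps came from GENCODE M21 and sequences from RefSeq on GRCm38.p6. Members, lists and motifs were chosen with earlier results of these data known. Named genes were all members, tested rows in the clusters, up to 3 genes of lowest p per list, and the 3 genes most like Hoxd8. Runx2 and the markers named singly were chosen after their values were seen, and a few genes that the rule names are not reported here. Total counts of 61461870 to 76159034 per library left the 9 members with 124 to 4074 counts over all libraries, so counting noise limits the lowest. Intervals cover the spread between these libraries only.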

Additional observations from a re-analysis of the deposited data

How the results depend on the processing

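The count of Hox members called (6) was 4 to 6 under 15 of the 16 alternatives, and 2 in limma on log2(FPKM + 1) when genes under 1 FPKM on average were left out, where Hoxd8 and Hoxa2 alone were tested. Leaving out a library gave 6 calls each time. Without KO replicate 1 Hoxb9 was lost and Hoxd3 gained. Hoxd8, Hoxa2, Hoxb3 and Hoxd9 were called under every alternative that tested them. Over all genes, 3270 to 4552 were called against 4179. With the replicate number as a replicate block there were 3888 calls, 6 of them among the members. Same-numbered libraries did not deviate together (r = -0.05, -0.02 and 0.00 over genes), so the numbers were not taken as pairs. Hoxa3 and Hoxb4, under 0.5 CPM on average in both groups, rest on few counts and had wide intervals.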
